A study of Drosophila melanogaster with 6 samples.

Results

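Long runs of neighbouring Insv peaks are described here. Peaks with at most 5000 bp between their facing edges were joined, and joined regions of 20 or more peaks were kept. On the arms X, 2L, 2R, 3L, 3R and 4 there were 96 such regions of 2606 in all (3.68%), and they held 2729 of 12693 peaks (21.5%). They are called large regions below and are set against the 1608 regions of 2 to 19 peaks, with the 278 regions of 10 to 19 peaks given as the nearest in size. The members were chosen by the positions of peak edges alone, so number of peaks, length, gaps and share covered are descriptions. Wider peaks have closer facing edges, so the rule used width in part. Score and width come from the same list and are also given without a test.

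The peaks come from chromatin immunoprecipitation and sequencing (ChIP-seq) of Insensitive (Insv) in Kc167, a female cell line derived from late embryos of Drosophila melanogaster with the genotype se/e. The labels give 3 ChIP samples, made with a rabbit polyclonal serum against Insv that had been pre-adsorbed with early embryos, and 3 input samples, which are DNA without immunoprecipitation. All 6 samples are of this 1 line. The single deposited list has no value for any one sample, and library depth is unknown, so no error between replicates can be given. Intervals below are exact 95% intervals that cover counting error over peaks or regions of 1 list, whose members are not independent.

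Insv has a BEN domain, a fold that binds DNA, and is known as a nuclear corepressor that opposes Notch signalling during development of the fly nervous system. Proteins of this kind bind short sequence elements and can also be held at chromatin by partners. Binding maps of such proteins can hold both isolated peaks and long stretches with many peaks. The peak caller can mark 1 enriched stretch as several peaks where the signal dips. In this list no facing edges on the arms were closer than 50 bp and no peak was narrower than 201 bp.

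The large regions were long rather than crowded. They had a median length of 44.2 kb (95% interval 40.4 to 48.0), from 20.1 to 120.5 kb, against 21.7 kb in regions of 10 to 19 peaks and 6.40 kb in regions of 2 to 19 peaks. The number of peaks per kb had a median of 0.594 in large regions (0.577 to 0.609), 0.586 in regions of 10 to 19 peaks (0.561 to 0.602) and 0.679 in regions of 2 to 19 peaks (0.665 to 0.702). A short region begins and ends with a peak, which raises its number per kb by construction. Across the 96 large regions, length followed the number of peaks (Spearman's rho 0.81, Pearson's r 0.89, a description in which both measures share the same peaks).

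Most members were close to the threshold. Between 20 and 29 peaks were found in 68 regions, and 30 or more in 28, of which 9 had 40 or more. The 9 regions of exactly 20 peaks were 20.1 to 45.3 kb long (median 33.1 kb), with a median highest score of 46.23. The 11 regions of 19 peaks, just outside, were 22.3 to 45.4 kb long (median 33.2 kb), with a median highest score of 48.3. Regions on the 2 sides of the threshold thus overlapped in length and were close in median highest score. The median of the regions' median scores was 14.885 at 20 peaks and 17.14 at 19. At 21 peaks, with 8 regions, the median highest score was 96.91, so medians over so few regions vary. Together the 96 regions spanned 4709 kb, or 3.97% of the summed spans of the arms, and peaks inside them covered 2517 kb, which is 24.98% of all sequence covered by peaks on the arms.

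The share of a region filled by peaks differed by a few percentage points between large regions and all regions of 2 to 19 peaks. The median share covered was 53.1% in large regions (50.04 to 54.9), against 50.6% in regions of 10 to 19 peaks (49.0 to 52.9) and 50.04% in regions of 2 to 19 peaks (48.5 to 51.4). By number of peaks in the region, the median share was 52.5% for 2 to 4 peaks and 45.2% for 5 to 9. It was 50.6% for 10 to 19, 52.6% for 20 to 29 and 54.2% for 30 or more. More than 50% was covered in 59 of the 96 large regions. The medians of both smaller classes also lay above 50%, so at least 50% of the regions in each passed that value too. The smaller regions varied more, with an SD of 20.5 percentage points over the 1608 regions of 2 to 19 peaks and 9.85 over the large ones, and a share made from fewer peaks varies more by construction. Gaps between facing edges had a median of 458 bp in large regions (426 to 489), 491 bp in regions of 10 to 19 peaks (462 to 526) and 555.5 bp in regions of 2 to 19 peaks (531 to 583). Of the gaps in large regions, 52.6% were at most 500 bp and 27.4% at most 200 bp, against 47.3% and 25.01% in regions of 2 to 19 peaks. The joining rule caps gaps at 5000 bp in each class.

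**Figure D1:**
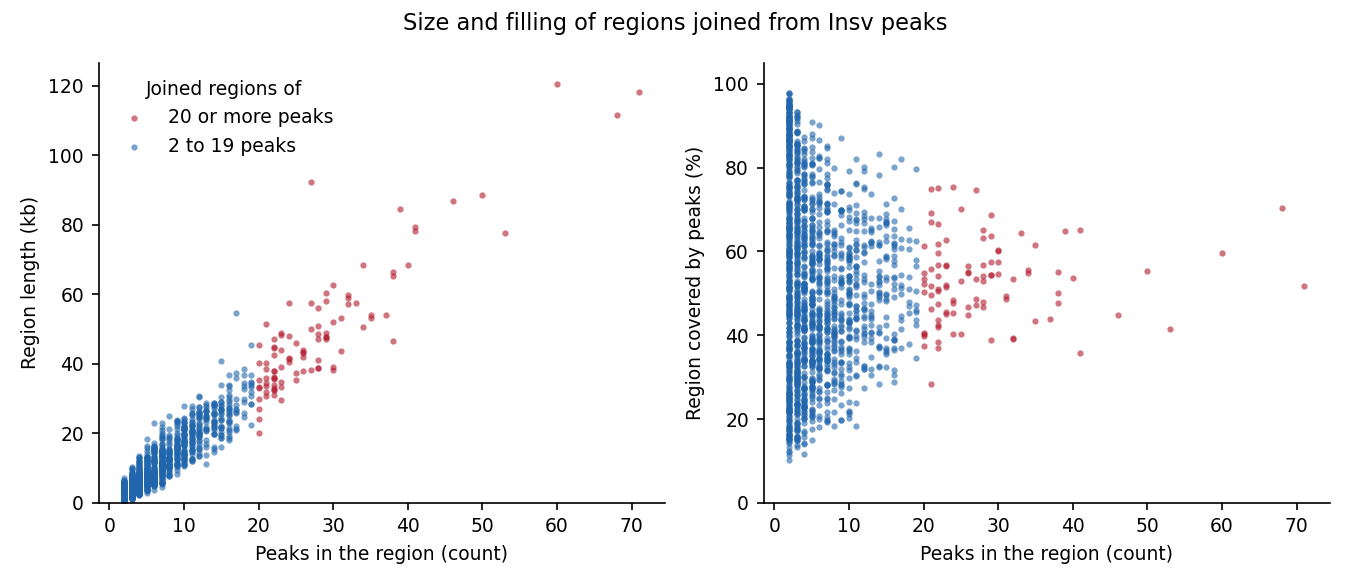
Each point is 1 joined region, with the number of its peaks on the horizontal axis and its length in kb (left) or the percentage of its length covered by peaks (right) on the vertical axis. Large regions reach 120.5 kb and 71 peaks continuing the trend of the smaller regions, their share covered stays between 28.4 and 75.4%, and the region of 27 peaks that lies above the others in length is the one on 2L at 92.4 kb.

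The 4 regions with the most peaks lay on 4 different arms. On 3L, from 3354704 to 3472807, 71 peaks covered 51.7% of 118 kb, and on 2L, from 467753 to 579138, 68 peaks covered 70.4% of 111 kb. The region on X from 19492197 to 19612674 was the longest of all and held 60 peaks. On 3R, from 1425636 to 1503361, 53 peaks covered 41.4% of 77.7 kb. These 4 differed in how high their peaks rose. On 2L 14 peaks scored above 50 and the highest reached 180.62, while on 3R the highest of 53 scores was 44.6 and the next 42.2. On 3L a single peak of 145.97 stood 2.24 times as high as the next, and on X scores of 107.19 and 86.26 led.

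The next in size were 2 regions on 3R and 2 on 2L, 1 on 2R and 1 on X. On 3R the region from 12010666 to 12099198 had 50 peaks, 10 of them above a score of 50, and the region from 16880678 to 16967330 had 46 peaks, 1 of them above 50. On 2L the region from 11985006 to 12063041 had 41 peaks and a highest score of 109.42, and that from 1102216 to 1186753 had 39 peaks with a median score of 24.64. Arm 2R had its largest region from 9820520 to 9899928, with 41 peaks over 79.4 kb of which 35.8% was covered. The region with 40 peaks, on X from 6696850 to 6765137, held the highest score of any large region. The shortest was on 2R from 6974209 to 6994276, where 20 peaks lay in 20.1 kb and the highest score was 32.03.

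Peaks in large regions were a little stronger and wider than those in smaller regions. Their median score was 17.14 (16.59 to 17.69), against 16.59 in regions of 10 to 19 peaks (16.09 to 17.12), 15.26 in regions of 2 to 19 peaks (14.99 to 15.52) and 16.05 for single peaks. Their median width was 603 bp (572 to 630), against 587 bp in regions of 10 to 19 peaks (567 to 605), 518 bp in regions of 2 to 19 peaks (505 to 530) and 420 bp for single peaks. The intervals of large regions and of regions of 10 to 19 peaks overlapped for both measures. By number of peaks in the region, the median score was 14.22 for 2 to 4 peaks, 14.99 for 5 to 9, 16.59 for 10 to 19, 17.14 for 20 to 29 and 16.86 for 30 or more. The highest of these 5 values was at 20 to 29 peaks. The score is the authors' own value, and the sources used here do not say what it is made from.

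Wide peaks carry higher scores in this list, and wide peaks also bring facing edges closer, so scores were set side by side within groups of width. Among the narrowest peaks (201 to 313 bp) the median score was 10.94 in large regions (10.72 to 11.27) and 10.41 in regions of 2 to 19 peaks (10.19 to 10.41). Among peaks of 314 to 520 bp it was 13.22 (12.77 to 13.72) and 12.98 (12.73 to 13.22), and among peaks of 521 to 960 bp 18.82 (18.25 to 19.46) and 17.97 (17.69 to 18.25), in the same order of classes. Among the widest (961 bp and more) it was 31.98 in large regions (30.09 to 33.69) and 29.205 in regions of 2 to 19 peaks (28.21 to 29.92). The difference between these 2 classes was thus 0.24 to 0.85 score units in the groups up to 960 bp and 2.78 in the widest group, against 1.88 over all widths. In regions of 10 to 19 peaks the medians were 10.64, 12.98, 18.09 and 29.62 from the narrowest to the widest group. Their intervals overlapped those of large regions in each group. The widest group runs to 9946 bp, so widths in it are not alike. It also keeps the region of wide peaks on 2L that is described below. Single peaks in the same width groups had medians of 10.64, 15.36, 25.17 and 36.775 from the narrowest to the widest. These lay below large regions in the narrowest group and above them in the others.

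**Figure D2:**
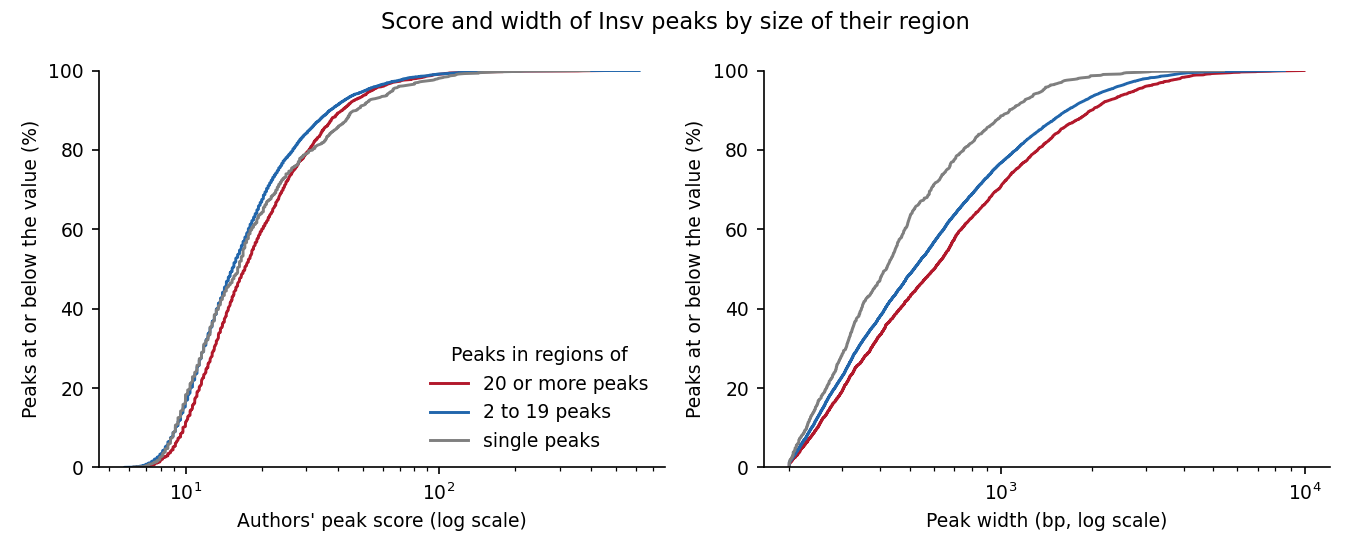
Cumulative percentage of peaks (vertical axis) at or below a score (left, log scale) or a width in bp (right, log scale), for peaks in regions of 20 or more peaks, peaks in regions of 2 to 19 peaks and single peaks. The curve of the large regions lies to the right of that of smaller regions in both panels, with medians of 17.14 against 15.26 for score and 603 against 518 bp for width, and single peaks are the narrowest.

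Strong peaks were about as frequent inside large regions as elsewhere. Scores above 50 were given to 177 of their 2729 peaks, or 6.49% (5.59 to 7.48), where 5.81% of all peaks on the arms passed that value, 5.30% of those in regions of 2 to 19 peaks (4.84 to 5.78) and 8.87% of single peaks (7.10 to 10.9). A single region on 2L supplied 23 of the 177, and without it the share was 5.70%. Scores above 100 were given to 27 of the 2729 peaks (0.989%, 0.653 to 1.44), beside 1.00% of all peaks on the arms. Of the 10 strongest peaks on the arms 4 lay in large regions (40%, 12.2 to 73.8), of the 50 strongest 13 (26%, 14.6 to 40.3), of the 100 strongest 19 (19%, 11.8 to 28.1) and of the 500 strongest 113 (22.6%, 19.01 to 26.5), while 21.5% of all peaks were there. Each of these intervals includes 21.5%.

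Large regions without any strong peak existed but were a smaller share than among smaller regions. In 34 of the 96 (35.4%, 25.9 to 45.8) no score was above 50, against 52.9% of regions of 10 to 19 peaks (46.8 to 58.9) and 77.6% of regions of 2 to 19 peaks (75.5 to 79.6). At least 1 score above 100 was found in 23 of the 96 (24.0%, 15.8 to 33.7), against 9.71% of regions of 10 to 19 peaks (6.50 to 13.8) and 4.79% of regions of 2 to 19 peaks (3.80 to 5.95). The highest score per region ran from 26.21 to 466.32 with a median of 60.93 (53.08 to 70.48), against 47.68 in regions of 10 to 19 peaks (44.2 to 51.68) and 29.23 in regions of 2 to 19 peaks. A region with more peaks has more chances of a high value, so the order of these values follows in part from size. The highest score was 3.41 times the region's median score in large regions (median over regions, 3.04 to 4.13) and 2.89 times in regions of 10 to 19 peaks (2.76 to 3.04). Across the 96 regions the number of peaks had a Spearman's rho of 0.12 with the highest score and of 0.04 with the median score.

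In 5 large regions the strongest peak scored more than 4 times as high as the next. On X from 6696850 to 6765137 the strongest peak, at 6736469, scored 466.32, which is 32.2 times the median of that region and 4.61 times its next peak. On 2R from 17572795 to 17610863 the peak at 17589988 scored 441.83, the next 65.58, and the median of the 27 peaks was 17.97. On X from 6137703 to 6195821 the peak at 6178608 was 9946 bp wide, scored 371.52 and made up 26.9% of the covered sequence. On 3R from 27538378 to 27576296 the strongest of 22 peaks was the very first, at 27538378, with 355.11 against 70.8 for the next. The fifth highest score, 225.82, was in a region of 23 peaks on 2L from 18676421 to 18715340, at 4.55 times the next. Over all 96 this ratio had a median of 1.25 (1.18 to 1.499), and among the 96 it passed 4 only in these 5. These 5 were picked for their scores. The median ratio was 1.284 (1.238 to 1.373) in regions of 10 to 19 peaks, and the 2 intervals overlap. The highest ratio was 7.581 in that class and 59.44 in regions of 2 to 19 peaks. Ratios above 4 were thus not confined to large regions.

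**Figure D3:**
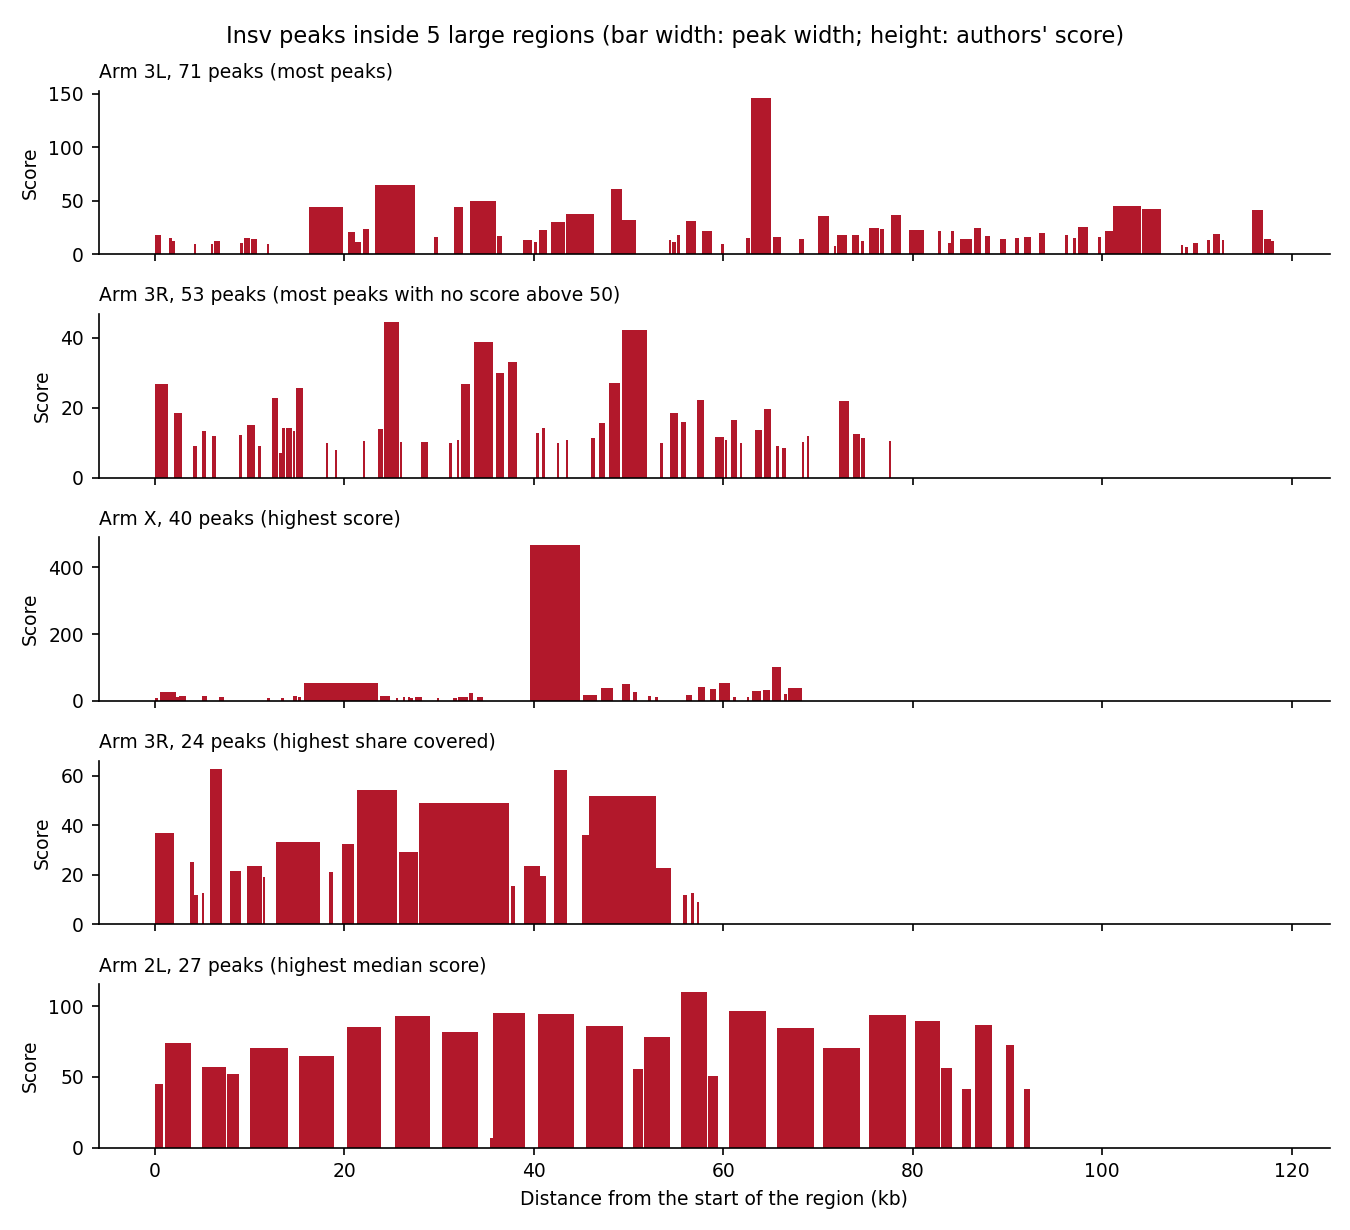
Peaks of 5 large regions drawn as bars, with distance from the start of the region in kb on the horizontal axis, bar width as peak width and bar height as the authors' score (each panel has its own vertical scale from 0). The regions on 3L and 3R in the upper panels mix narrow low peaks with a few broad higher ones, the region on X is led by 1 peak of 466.32, and on 2L broad peaks of about even height recur at about even steps.

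The strongest peak had no fixed place in a large region. With region length cut into 3 equal parts, it lay in the part of lower coordinates in 37 regions, in the middle part in 27 and in the part of higher coordinates in 32. Its distance from the nearer end was 0.224 of the region length (median, 0.192 to 0.273), against 0.235 in regions of 10 to 19 peaks (0.204 to 0.268) and 0.184 in regions of 2 to 19 peaks (0.173 to 0.194). The strongest was the first or last peak in 12 of 96 large regions (12.5%, 6.63 to 20.8), where equal places for every peak would give 7.60%. In regions of 10 to 19 peaks it was the first or last in 54 of 278 (19.4%, 14.9 to 24.6), where equal places would give 15.96%. Both intervals include the share from equal places. The first and last peaks of large regions had a median score of 15.445 (13.82 to 17.52), the peaks next to them 14.74 (13.33 to 16.59) and inner peaks 17.42 (16.86 to 18).

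The strongest peak was not always the widest. It was so in 31 of 96 large regions (32.3%, 23.1 to 42.6), in 121 of 278 regions of 10 to 19 peaks (43.5%, 37.6 to 49.6) and in 60.6% of regions of 2 to 19 peaks, and fewer peaks leave fewer rivals in width. It made up 9.50% of the covered sequence of a large region (median, 7.57 to 11.2). Relative to the region's median, the mean score of the peaks 1 place away from the strongest was 1.11 (median over regions, 0.971 to 1.24), and it was 1.02 at 2 places, 1.04 at 3 and at 4, 1.00 at 5 and 1.013 at 6. In regions of 10 to 19 peaks the value 1 place away was 1.03 (0.974 to 1.09), and in regions of 2 to 19 peaks 0.922 (0.906 to 0.934). The interval of the large regions includes 1 and overlaps that of regions of 10 to 19 peaks, and it lies above that of regions of 2 to 19 peaks. In a region of few peaks the neighbours themselves set much of the median.

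**Figure D4:**
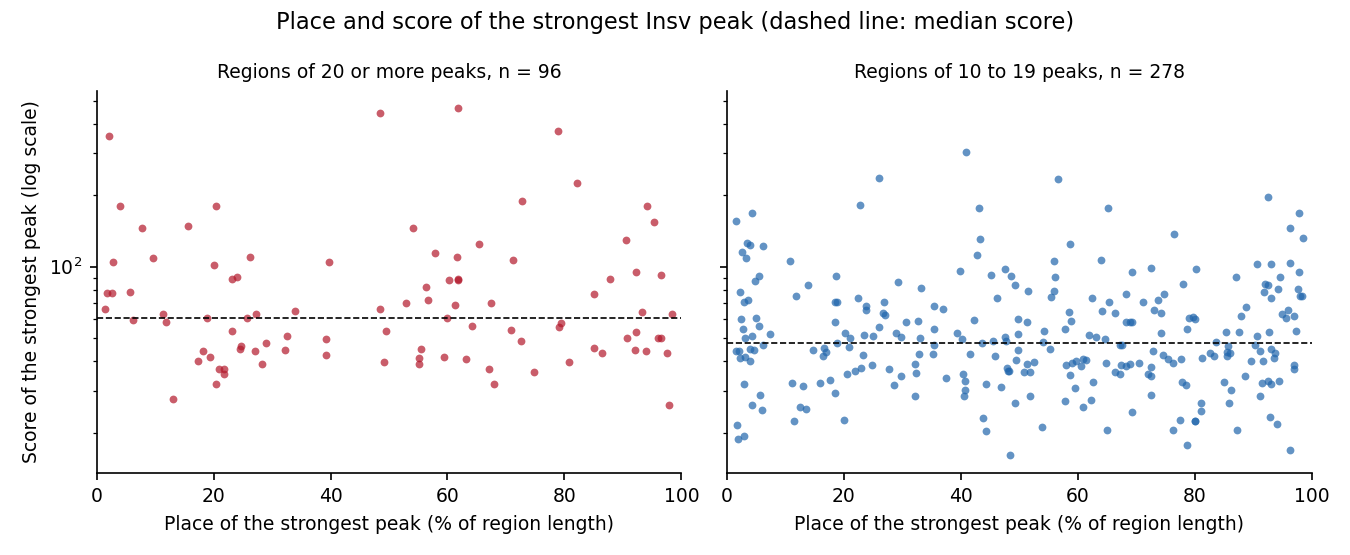
Each point is 1 region, with the place of its strongest peak as a percentage of region length on the horizontal axis and the score of that peak on a log scale on the vertical axis, for regions of 20 or more peaks (left) and of 10 to 19 peaks (right). Points spread over the whole length in both panels, and the dashed medians are 60.93 in the 96 large regions and 47.68 in the 278 smaller ones.

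Regions at the extremes of filling and strength differed in make-up. The highest share covered was on 3R from 23064413 to 23121907, where 24 peaks filled 75.4% of 57.5 kb and a run of peaks at most 500 bp apart reached 18287 bp, the longest such run in any large region. Next came 3R from 23739906 to 23784408 with 75.2% and 3L from 5742913 to 5776604 with 74.9%. The median longest run of this kind was 6381.5 bp in large regions (5310 to 7517) and 4420.5 bp in regions of 10 to 19 peaks (4025 to 4671). A region with more peaks has more chances of a long run. Gaps of at most 500 bp were 52.6% of all gaps in large regions and 50.6% in regions of 10 to 19 peaks. The lowest share, 28.4%, was on 2L from 18936063 to 18987516, where 21 peaks had a median gap of 1688.5 bp, yet 1 of them scored 147.82. Share covered rose with median width (Spearman's rho 0.70) and with median score (0.56) across the 96, a description of measures that share the same peaks.

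The lowest median score, 10.975, was on X from 16304879 to 16346343 with 24 peaks, followed by 11.62 on 3R from 27596552 to 27629139, where 22 peaks covered 37.0% and none passed 35.29. On 3R from 4626792 to 4658637 the median of 21 peaks was 11.97, while the first peak, 6100 bp wide, scored 109 and made up 38.6% of the covered sequence. At the other end, medians of 26.66 and 25.71 were found on 3L from 8668406 to 8707127 and on 2R from 2514868 to 2575144, with 28 and 29 peaks.

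A single large region stood far from all others, on 2L from 21451108 to 21543483. Its 27 peaks had a median score of 73.91 and a median width of 2756 bp, while no other large region passed 26.66 in median score or 1184.5 bp in median width. All but 4 of its peaks scored above 50, yet its highest, 109.99, was only 1.49 times its median, the lowest such ratio of the 96. Peaks covered 74.7% of its 92.4 kb, the fourth highest share, while its number of peaks per kb, 0.292, was the lowest. Its values were seen before it was singled out, so they are a description.

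The peaks of that region recurred at near-constant steps. Joining its peaks within 500 bp gave 20 blocks, and the first 17 steps from the start of one block to the start of the next were 5012 ± 90.3 bp (SD over steps), from 4833 to 5123 bp. The last 2 steps were 4622 and 1912 bp. Most blocks were alike in length: the first 17 ran from 3622 to 3951 bp, and their highest scores from 56.75 to 109.99. With blocks made in the same way, the SD of all steps divided by their mean was 0.148 in this region. It was 0.274 in the next most even large region, on 3L from 813599 to 852138, and 0.605 at the median of the 96 (0.577 to 0.642). Regions of 10 to 19 peaks had a median of 0.519 (0.502 to 0.544) and a lowest value of 0.079, below that of this region. They had fewer blocks, with a median of 7 against 13, and a value from few blocks varies more by construction. What sequence lies in this stretch, and how reads from near-identical copies would have been placed, was not analysed here.

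The 5 long arms shared the large regions unequally and chromosome 4, with 19 peaks in all, had none. There were 28 on 3R, 22 on X, 21 on 2R, 15 on 2L and 10 on 3L. Per Mb of span this is 1.00 on 3R, 0.989 on X, 1.01 on 2R, 0.656 on 2L and 0.411 on 3L. They held 24.2% of the peaks of 3R (22.7 to 25.7), 24.0% of those of X (22.3 to 25.7), 22.0% of those of 2L (20.2 to 23.8), 20.6% of those of 2R (19.1 to 22.1) and 15.1% of those of 3L (13.5 to 16.7). Median lengths per arm lay between 40.1 kb on 3L and 45.8 kb on 3R. The median score of peaks in large regions was highest on 2L, at 20.54, and lowest on 2R, at 15.78. On 2L 62 of these peaks scored above 50, including the 23 of the evenly spaced region, against 19 on 2R.

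Consecutive large regions lay at widely differing distances. Only 3.68% of all regions had 20 or more peaks, so these distances follow in part from the rule. The 91 distances between consecutive large regions on an arm had a median of 618 kb (432 to 850), with quartiles of 218 and 1376 kb and a median of 16 smaller regions between. Distances of at most 100 kb were found 9 times and distances over 1000 kb 29 times. In 5 cases no other region lay between the pair. The nearest pair was on X, where 6873 bp separated a region of 38 peaks (5554708 to 5619986) from one of 21 (5626860 to 5661358). On 3R 7871 bp lay between 23 peaks (5319501 to 5368480) and 28 peaks (5376352 to 5417296), and on X 18387 bp lay between 25 peaks (8972441 to 9009725) and 22 peaks (9028113 to 9064103). A joining distance of 10000 bp would have merged the first 2 of these pairs.

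**Figure D5:**
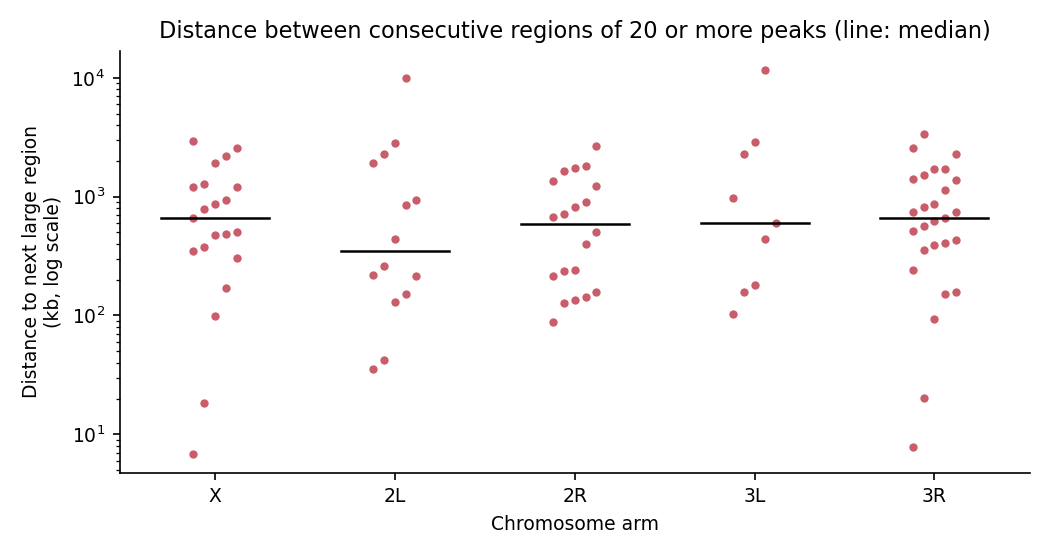
Distance in kb from each region of 20 or more peaks to the next one on the same arm (vertical axis, log scale) for the arms X, 2L, 2R, 3L and 3R, with a black line at each arm's median. Distances run from 6.87 kb on X to 11655 kb on 3L, and the medians lie between 349 kb on 2L and 661 kb on 3R.

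Long stretches of 2 arms had no large region. On 3L none lay between 8707128 and 20362240, a stretch of 11.7 Mb that held 653 peaks in 228 regions, or 56.0 peaks per Mb, with 18 peaks in the largest region. On 2L none lay between 1186754 and 11091174, a stretch of 9.90 Mb with 524 peaks in 170 regions, or 52.9 per Mb. Median peak scores there were 13.72 and 13.46, below the 15.78 of all peaks on the arms. The arms together held 12693 peaks over a summed span of 118.6 Mb. The next longest distance, on 3R, was 3336 kb, with 80.3 peaks per Mb between. Both long stretches thus held peaks, though fewer per Mb than the arms as a whole. Among their regions were 11 of 10 to 19 peaks on 3L and 12 on 2L.

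The nearest region of any size lay at a median of 8502 bp (7382 to 10787), against 8684.5 bp for regions of 10 to 19 peaks (8062 to 9378) 8768 bp for regions of 2 to 19 peaks (8440 to 9014) and 12152.5 bp for single peaks (11523 to 12802). The interval of the large regions overlaps those of the other joined regions and lies below that of single peaks. By the joining rule none can be nearer than 5000 bp. Neighbours were counted on each side of each large region, 192 in all, so a region between large ones counts from both sides. Of these 192, 28 or 14.6% (9.91 to 20.4) had 10 or more peaks, where 14.4% of all regions have that many. Those with 20 or more were 10 or 5.21% (2.53 to 9.37), where 3.68% of all regions have that many. These 10 are the 5 pairs with no other region between, each counted from both sides. Single peaks made up 31.2% of the 192 (24.8 to 38.3), against 34.6% of all regions. Each of these shares of all regions lies within the interval for the neighbours. Because of the double counting these intervals are too narrow.

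Some large regions kept 20 peaks under a stricter rule. With joining at 2000 bp there were 23 regions of 20 or more peaks, each inside a different one of the 96. The whole of the region on 2L from 467753 to 579138 kept its 68 peaks, and the evenly spaced region kept its 27. With only the peaks at or above the median score, 11 regions of 20 or more were left, again each inside a different one of the 96. Of these the region on 2L kept 40 peaks, that on 3L with the most peaks kept 36 and the evenly spaced region 26. Among the 613 peaks of the 23 regions, 11.4% scored above 50, and 8.02% without the evenly spaced region. Whether any large region overlaps genes, promoters or repeats was not analysed here, and no sequence is shown, since no genome of the peaks' release was used.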

How the data were processed

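The submitters' processing notes name BWA, MACS2 and CASAVA (1.7.0.2 and 1.7.0.3) with build BDGP5. Per the file headers, the deposited list gives MACS peaks on FlyBase release 5, with first base, last base and a score by the authors' peak caller. The kind of score, the calling threshold, duplicate handling and the combining of replicates and input are not stated in those sources. Depth is unknown.

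Coordinates are 1-based. Peaks on the 6 main arms were joined, with the gap counted as the bases between facing edges, and an arm's span taken between its outermost peaks. Intervals of medians come from order statistics, and those of shares are exact (Clopper-Pearson), at 95%. No p-value is given, since positions chose the regions. Regions named were those with extreme size, score, share covered or nearness, by rule. Members, rule and measures were chosen with earlier results of these data known. The joining was tested on simulated data. Tools were Python 3.11.15, pandas 2.3.3, numpy 2.4.6, matplotlib 3.10.9 and scipy 1.17.1. Release 6 gene positions were not used. Alternatives are given in the closing section.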

Additional observations from a re-analysis of the deposited data

How the results depend on the processing

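The choice of joining distance and of minimum number decided how many large regions there were. Joining at 2000 bp gave 23 regions with 4.83% of the arm peaks, a median length of 35.8 kb, 66.6% covered, gaps of 409.5 bp, a score of 18.35, a width of 689 bp, 11.4% of scores above 50, a score next to the strongest of 0.951 times the median and 3202 kb between regions. Joining at 10000 bp gave 163 regions with 40.4% of the peaks, 61.9 kb, 41.7% covered, gaps of 539 bp and 334 kb between. A minimum of 15 peaks gave 180 regions with 32.4% of the peaks, 34.5 kb and 262 kb between. A minimum of 30 gave 28 regions with 8.74%, 61.2 kb, 1098 kb between and the strongest peak at 0.286 of the length from the nearer end. The strongest 50% of the peaks gave 11 regions with 4.57%, 63.6 kb, 61.9% covered, gaps of 685 bp, a score of 30.865, a width of 1097.5 bp, 21.7% above 50, a highest score of 109.99, a place of 0.293, 0.922 next to the strongest and 4578 kb between. Leaving out weak peaks raises scores by construction. A changed minimum changes the number of regions and their share of the peaks by construction, and the joining distance caps the gaps. For the other moved values the cause was not tested. Set against regions of 10 to 19 peaks in place of 2 to 19, the difference in place reversed to -0.011 (0.040 before). The earlier difference had a combined 95% interval of -0.002 to 0.082, which spans both signs. Differences shrank to 22.5 kb in length (37.8 before), 13.2 in highest score (31.7), 0.51 in highest over median score (1.75), 0.55 in score (1.88), 16 bp in width (85) and -33 bp in gap (-97.5). Within 4 equal groups of peaks by width the score difference from regions of 2 to 19 peaks was 0.53, 0.24, 0.85 and 2.78 from the narrowest to the widest. The widest group has no upper limit of width. The other 51 of 99 values moved by less than their 95% interval or, for the number of regions, by less than 1.5 times. Leaving out the evenly spaced region on 2L, an alternative chosen after seeing the data, changed no value of the main setting by more than that. In the alternatives it weighed more. Without it the share above 50 fell from 11.4 to 8.02% with joining at 2000 bp and from 21.7 to 15.2% with the strongest 50% of the peaks. No paired analysis was possible because no value belongs to a single library. Unknown depth limits which weak peaks, and so which large regions, were called.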
